A study of Homo sapiens with 8 samples.

Results

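The 10 genes described here are TFF1, TFF3, GREB1, PDZK1, HSPB8, SIAH2, CA12, STC2, TGM2 and RAPGEFL1. They were chosen by symbol, with earlier results of these data known, as genes that estradiol is known to raise through oestrogen receptor alpha (ERα). Each matched 1 row of the deposited table of unnormalised signals, so that all 10 were found among 31412 gene rows. The cells were MDA-MB-231, an established human line of triple-negative breast cancer, carrying a doxycycline-inducible form of oestrogen receptor beta (ERβ, encoded by ESR2), and RNA was read on Illumina bead arrays. Every culture of both treatments received doxycycline at 100 ng/ml in medium with charcoal-stripped serum. The vehicle cultures were then given ethanol and the estradiol cultures 1 nM estradiol, each for 5 days. There were 3 cultures and 4 arrays per treatment, since a second RNA sample of 1 culture in each was also hybridised, after the submitters had seen replicate 3 vary slightly from the others. Where a culture had 2 arrays, their mean was used. No culture went without doxycycline, so an effect that needs ERβ cannot be told apart from another effect of the ligand. In bulk RNA, fewer cells expressing a gene and less RNA per cell cannot be told apart either.

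ERα and ERβ are nuclear receptors that bind estradiol and then act on genes by binding oestrogen response elements in DNA or by tethering to other transcription factors. In ERα-positive breast cancer cells some of the genes chosen here are used as readouts of the receptor, and TFF1 is the standard one. MDA-MB-231 cells are known for lacking ERα and the progesterone receptor. On these arrays ESR1, which encodes ERα, was detected on 0 of 8 arrays (raw signal 56.2 to 72.1), and so were PGR and FOXA1. The mesenchymal markers VIM, CD44, CAV1 and MSN were detected on 8 of 8 arrays, and VIM (log2 change 0.68), CAV1 (0.92) and MSN (0.36) were higher with estradiol (adjusted p of 0.0334 or less, limma). EGFR, detected on 3 vehicle arrays, was lower (-0.41, adjusted p = 0.0323, limma). Of the epithelial markers KRT18 was detected on 8 arrays and did not pass (0.43). CDH1 was detected on 0 of 4 vehicle and 4 of 4 estradiol arrays and was at least 4.73-fold higher (adjusted p = 3.73e-08, limma). Only rows detected on at least 3 of 8 arrays were tested. EGFR met this filter through vehicle arrays alone and CDH1 through estradiol arrays alone. For both, the filter and the change are not independent. ERBB2 was detected on 1 array. Its row, like those of EGFR and CD14, combines several probes, and there the detection p is not a rank of the signal. Raw signals over the 8 arrays were 219 to 330 for ERBB2, 193 to 321 for EGFR and 125 to 162 for CD14. The leukocyte, fibroblast and endothelial markers PTPRC, CD3E, DCN, LUM, PECAM1, CDH5 and VWF were detected on 0 arrays. CD14 and PDGFRB, which also mark such cells, were detected on 4 and 8 arrays, and PDGFRB was lower with estradiol (log2 change -0.48, adjusted p = 0.0217, limma). The part of these in the results was not tested. ESR2 had a raw signal of 2130 to 3163 on the vehicle arrays and 1209 to 1349 on the estradiol arrays, and was lower with estradiol (log2 change -1.17, SE 0.118, adjusted p = 5.09e-05, limma). Without the probes' sequences, RNA of the inducible form and of the cells' own ESR2 gene cannot be told apart on this row.

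Between 10172 and 11123 rows were detected per array, and precision is limited by how few arrays there were. Among the vehicle arrays 1 lay apart, the repeat of vehicle culture 3. It correlated with the first array of its culture at r = 0.980 across the rows tested, against at least 0.989 between the first arrays of vehicle cultures 1, 2 and 3. The estradiol arrays were not compared in this way. The inferred background SD was largest on the repeat arrays, at 11.4 for vehicle culture 3 and 11.6 for estradiol culture 1. The labels do not say that replicates were grown apart, so the p-values describe the spread of these cultures only, which may be technical. Detection p is the probability, given in the deposited table for each row and array, of such a signal among negative controls, and a row is called detected on an array where it is under 0.01. On single-probe rows it followed the raw signal exactly: the lowest detected signal was 78.1 to 93.3 over the 8 arrays, and the highest undetected one lay just under it, at 78.0 to 93.3. GREB1, PDZK1 and CA12 are rows that combine several probes, and there the detection p is not a rank of the signal shown. HSPB8 and TGM2 had a detection p of 0 on every array, so whether they hold 1 probe or several cannot be told apart.

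With estradiol HSPB8, TGM2 and TFF1 rose, and no gene of the 10 fell. Only 6 of the 10 passed the detection filter (a detection p under 0.01 on at least 3 of 8 arrays) and were tested. Of these, 3 rose, 0 fell and 3 did not pass, while 13.5% of the 11191 rows tested rose and 27.6% changed in either direction. TFF1 entered the test through its estradiol arrays alone, so for it the filter and the rise are not independent. At an unadjusted p under 0.05 (limma) 0 of the 6 were lower, where 2358 of all 11191 rows tested were, so a count of 0 among 6 says little. The filter set aside 4 genes, and these included PDZK1, whose raw signal was 64.8 to 69.7 on the vehicle arrays and 199 to 233 on the estradiol arrays. When all 31412 rows were tested without a filter, 5 of the 10 rose and 0 fell (limma), against 4.97% of all rows that rose and 4.82% that fell, and the additions were PDZK1 and GREB1. In 6 of the 10 every estradiol culture lay above every vehicle culture, as in 11.4% of all rows and 19.8% of the rows tested. The median log2 change over the 10 genes was 0.46, and over all rows it was -0.01. Because the genes were chosen with earlier results of these data known, these counts describe them and are not a test.

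**Figure D1:**
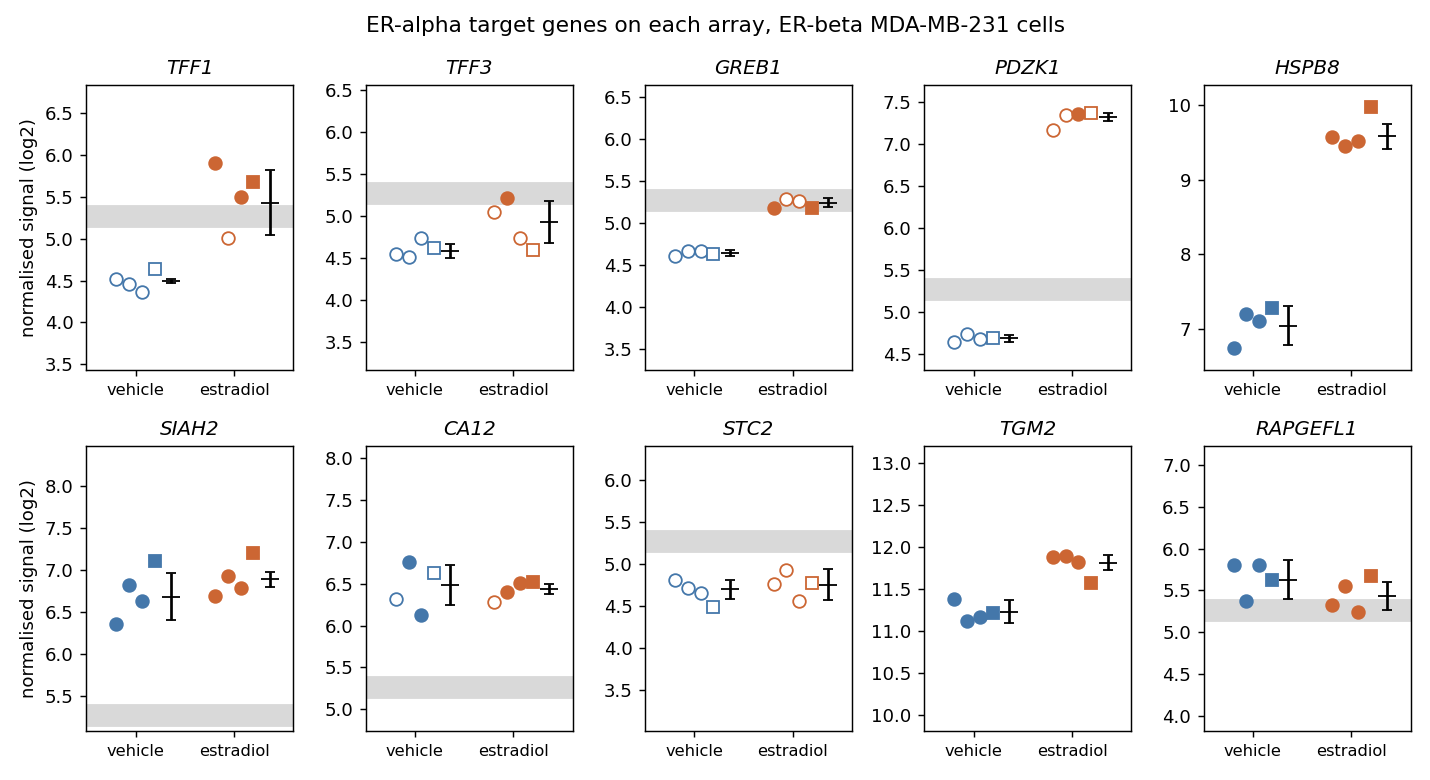
Normalised signal (log2) of each gene on the 4 vehicle (blue) and 4 estradiol (orange) arrays; squares are repeat arrays, filled points have a detection p under 0.01, and the black mark with its bar is the mean ± SD of the 3 cultures. The grey band, from 5.14 to 5.39, spans the lowest level of a detected single-probe row over the arrays: PDZK1 moves from below it to 7.17 to 7.37 while mostly drawn as not detected.

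Among the secreted proteins, TFF1 encodes the small trefoil peptide once called pS2, which is released with mucus. Its raw signal on vehicle arrays was 63.1 for culture 1, 54.3 for culture 2, and 48.7 and 64.4 for the first and repeat arrays of culture 3. On estradiol arrays it was 109.9 and 93.3 for culture 1, 75.8 for culture 2 and 95.1 for culture 3. Detection p was 0.304 to 0.965 on the vehicle arrays, so that TFF1 was not detected there, and 0.0013, 0.0026, 0.0273 and 0.0013 on the estradiol arrays in the same order of values, so that culture 2 alone missed the threshold. The groups did not overlap, and estradiol culture 2 was the lowest of its treatment. After background correction the log2 change was 0.94 (SE 0.171, adjusted p = 0.00243, limma). Set against the lowest level of a detected single-probe row, TFF1 was at least 1.09-fold higher with estradiol, with measured log2 means of 4.49 ± 0.0266 and 5.43 ± 0.390 (SD, n = 3 cultures each). The call was lost with the background inferred from all rows, at a log2 change of 0.04 (adjusted p = 0.0621, limma), and over the alternatives that tested it, leaving aside the fit with the chip as a block, the adjusted p ran from 4.49e-05 to 0.0621.

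TFF3 encodes the intestinal trefoil factor, a peptide of the same family. Its raw signal was 64.9, 56.6, 66.6 and, on the repeat array, 63.3 with vehicle, with a detection p of 0.17 to 0.626. With estradiol it was 79.5 and 61.5 on the 2 arrays of culture 1, 82.7 for culture 2 and 69.1 for culture 3. The array of culture 2 was the only one to detect it, at a detection p of 0.00519, and the raw values of the treatments overlapped. The log2 change of 0.35 did not pass when all rows were tested (95% interval 0.05 to 0.64, adjusted p = 0.162, limma). The interval is not adjusted for the number of rows.

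STC2 encodes stanniocalcin 2, a secreted glycoprotein hormone. It was detected on 0 of 8 arrays, with detection p of 0.117 to 0.694 on the vehicle arrays and 0.0442 to 0.448 on the estradiol arrays. Raw signals of 57.3 to 76.1 with vehicle and 62.0 to 73.2 with estradiol overlapped over nearly their whole range. The log2 change without a filter was 0.06 (95% interval -0.20 to 0.31, adjusted p = 0.872, limma), and with both treatments below detection no fold is given.

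PDZK1 encodes a scaffold protein with PDZ domains, also called NHERF3, that holds transporters and channels at the cell membrane. Its raw signal with vehicle was 69.7 for culture 1, 64.8 for culture 2, and 65.1 and 66.4 for the first and repeat arrays of culture 3. With estradiol it was 199 and 202 on the arrays of culture 1, 232 for culture 2 and 233 for culture 3. The lowest estradiol array lay far above the highest vehicle array, and within each treatment the 4 arrays were close together. Detection p was 0.143, 0.216, 0.437 and 0.109 on the vehicle arrays, and 0.119, 0.123, 0.0812 and 0.00462 on the estradiol arrays, so that 1 of 8 arrays met the threshold. On each of the 4 estradiol arrays the signal was nonetheless above every undetected single-probe row of that array.

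**Figure D2:**
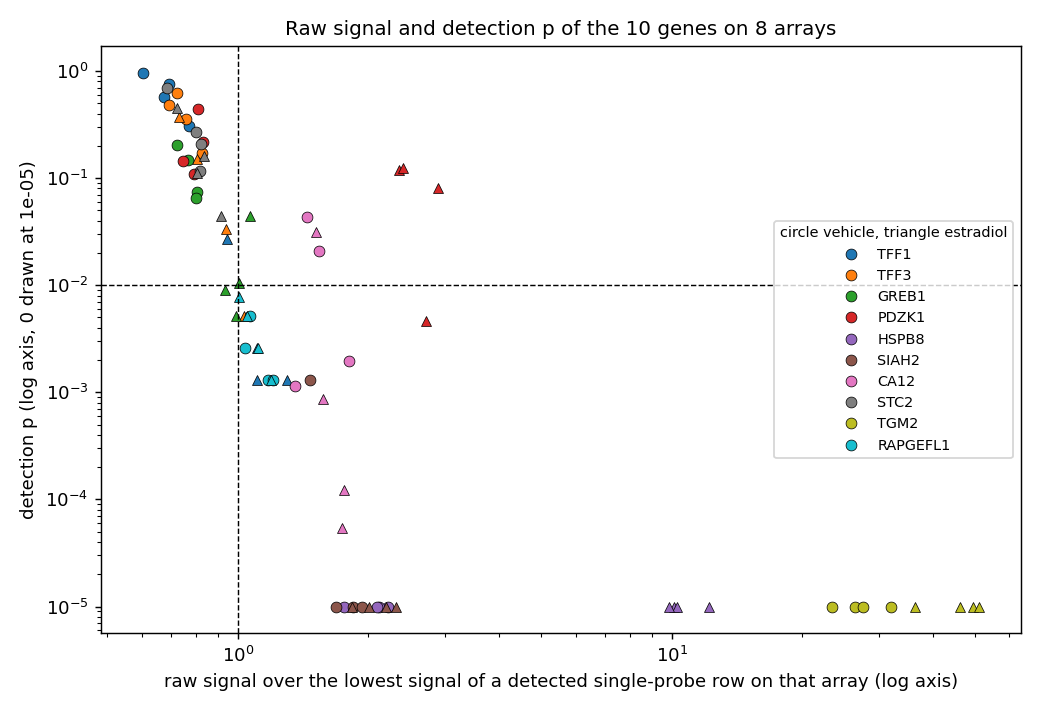
Raw signal divided by the lowest raw signal of a detected single-probe row on the same array (horizontal, log axis) against detection p (vertical, log axis, 0 drawn at 1e-05) for each gene on each array; circles are vehicle and triangles estradiol, and the dashed lines mark a ratio of 1 and a detection p of 0.01. Single-probe genes run from the upper left to the lower right, whereas the combined rows PDZK1, CA12 and GREB1 have arrays at the upper right. Those of GREB1, estradiol cultures 2 and 3, are only just there, at ratios of 1.07 and 1.01.

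The log2 mean of PDZK1 was 4.69 ± 0.0437 with vehicle and 7.32 ± 0.0480 with estradiol (SD, n = 3 cultures each). The log2 change was 2.64 (SE 0.0658), and it passed when all rows were tested (adjusted p = 8.83e-07, limma). It passed too when rows were chosen by raw signal instead of detection p (adjusted p = 3.76e-08, limma). That filter was chosen after the data were examined and kept 12164 rows. PDZK1 met it through its estradiol arrays alone, so for PDZK1 that filter and the rise are not independent. On this scale PDZK1 was at least 4.04-fold higher, a nominal bound because a combined row need not share the floor of single-probe rows. The size depended on the background correction: the log2 change was 1.43 without correction, 1.42 in the values the authors normalized and 0.20 when all rows served to infer the background. Within chip 1, which held 1 estradiol and 2 vehicle arrays, it was 2.50 and did not pass (adjusted p = 0.0997, limma, all rows), and within chip 2, with 3 and 2, it was 2.65 and passed (adjusted p = 2.00e-05).

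The pseudogene PDZK1P1 is a near copy of PDZK1 and has a single-probe row of its own, looked up after the values of PDZK1 were seen. Its raw signal was 59.6, 61.2, 62.8 and, on the repeat array, 70.6 with vehicle. With estradiol it was 242 and 251 on the arrays of culture 1, 293 for culture 2 and 262 for culture 3. It was detected on 0 of 4 vehicle and 4 of 4 estradiol arrays, with a detection p of 0 on the latter. It was at least 5.08-fold higher (log2 change 3.05, SE 0.113, adjusted p = 3.26e-08, limma). PDZK1P1 entered the test through its estradiol arrays alone, so for it the filter and the rise are not independent. Without the probes' sequences, signal of the gene and of the pseudogene cannot be told apart on either row. Of the 2 protein-coding genes beside PDZK1 in the gene table of GRCh38.p14, GPR89A fell (log2 change -0.53, adjusted p = 0.0151, limma) and CD160 was not tested (0.03).

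The bases upstream of 3 genes are shown because they set the 2 largest log2 changes, those of PDZK1 and HSPB8, beside a gene that did not pass. They are the 250 bases before the annotated start, 5′ to 3′ on the gene's strand, from RefSeq on GRCh38.p14, at chr1:145707401-145707650 (minus strand, the first of 2 annotated starts) for PDZK1, chr12:119178681-119178930 (plus strand) for HSPB8 and chr15:63381847-63382096 (minus strand) for CA12. Capitals mark GGTCA or its reverse complement, the 5-base core that an oestrogen response element holds on each of its arms.
PDZK1: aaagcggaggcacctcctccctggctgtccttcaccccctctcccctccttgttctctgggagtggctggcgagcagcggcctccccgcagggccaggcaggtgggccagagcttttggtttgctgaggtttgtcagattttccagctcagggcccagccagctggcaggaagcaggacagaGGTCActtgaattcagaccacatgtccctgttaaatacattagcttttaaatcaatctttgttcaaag
HSPB8: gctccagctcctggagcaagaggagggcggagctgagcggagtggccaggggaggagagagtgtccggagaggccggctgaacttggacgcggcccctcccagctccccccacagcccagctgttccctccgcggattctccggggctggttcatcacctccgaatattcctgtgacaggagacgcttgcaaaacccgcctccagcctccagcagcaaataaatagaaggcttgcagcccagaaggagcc
CA12: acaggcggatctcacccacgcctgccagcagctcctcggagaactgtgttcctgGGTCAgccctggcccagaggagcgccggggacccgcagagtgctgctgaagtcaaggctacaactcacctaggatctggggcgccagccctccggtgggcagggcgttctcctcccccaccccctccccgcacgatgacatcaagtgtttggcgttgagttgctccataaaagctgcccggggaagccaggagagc
The window of PDZK1 held 1 such core, 68 bases before the start, within the longer AGGTCA. That of HSPB8 held none, and that of CA12 held 1, 196 bases before the start. At least 1 GGTCA on either strand stood in 32.6% of the 35116 promoter windows of this length, and at least 1 AGGTCA in 12.1%. The full palindrome, GGTCA followed by any 3 bases and then TGACC, was in none of the windows available for the 10 genes (6 genes had one) and in 0.0399% of all windows. A match is a description of the letters and not a bound site.

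CA12 encodes carbonic anhydrase 12, a membrane enzyme that interconverts carbon dioxide and bicarbonate outside the cell. Raw signals were 134, 140.4, 109 and, on the repeat array, 128 with vehicle, with detection p of 0.0431, 0.00194, 0.00115 and 0.0211. With estradiol they were 128 and 132 on the arrays of culture 1, 141 for culture 2 and 149 for culture 3, with detection p of 0.0314, 0.000864, 0.000121 and 5.4e-05. The brightest vehicle array had a higher detection p than the dimmest one. The treatments overlapped and the log2 change was -0.05 (95% interval -0.34 to 0.25, adjusted p = 0.819, limma).

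HSPB8 encodes a small heat shock protein that, with its partner BAG3, delivers misfolded proteins to autophagy; it was named early as an estradiol-induced gene of breast cancer cells. Its raw signal was 164, 173, 170.4 and, on the repeat array, 175 with vehicle. With estradiol it was 856 and 1022 on the arrays of culture 1, 822 for culture 2 and 844 for culture 3. Detection p was 0 on all 8 arrays, and the lowest estradiol value was several times the highest vehicle value. The log2 mean was 7.04 ± 0.258 with vehicle and 9.58 ± 0.168 with estradiol (SD, n = 3 cultures each). The log2 change was 2.54 (SE 0.148, adjusted p = 9.29e-07, limma), a 5.80-fold rise. It was 2.56 within chip 1 alone, 2.50 within chip 2 alone and 1.12 when all rows served to infer the background, and it passed in all 26 alternatives. BAG3 itself did not pass (log2 change -0.02, adjusted p = 0.895, limma).

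TGM2 encodes tissue transglutaminase, which cross-links proteins and also binds GTP. Its raw signal was 2991 for vehicle culture 1, 2062 for culture 2, and 2218 and 1957 for the arrays of culture 3. With estradiol it was 4178 and 3059 on the arrays of culture 1, 4084 for culture 2 and 3947 for culture 3. The lowest estradiol array, the repeat, was only just above the highest vehicle array, so that the treatments did not overlap but lay close. Detection p was 0 on all 8 arrays. The log2 mean was 11.23 ± 0.139 with vehicle and 11.81 ± 0.0858 with estradiol (SD, n = 3 cultures each), a log2 change of 0.58 (SE 0.114, adjusted p = 0.00369, limma) or a 1.5-fold rise. Within chip 2 it was 0.62 (adjusted p = 0.0111, limma), and within chip 1, where the only estradiol array had to borrow the spread of the 2 vehicle arrays, 0.58 (adjusted p = 0.366, limma).

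GREB1 encodes a co-regulator that binds ERα in chromatin. With vehicle its raw signal was 67.5, 62.8, 64.5 and, on the repeat array, 64.1, with detection p of 0.203, 0.0747, 0.065 and 0.148. With estradiol it was 83.8 and 78.6 on the arrays of culture 1, 85.4 for culture 2 and 86.4 for culture 3, with detection p of 0.00514, 0.00904, 0.0439 and 0.0104. All 4 estradiol arrays were above all 4 vehicle arrays, yet near the level at which single-probe rows begin to be detected. GREB1 was set aside by the filter with 2 of 8 arrays detected. Without a filter it passed (log2 change 0.60, SE 0.0661, adjusted p = 0.00116, limma), and the change was 0.56 within chip 1, where it did not pass (adjusted p = 0.359, limma), and 0.57 within chip 2 (adjusted p = 0.00883). No fold is given, since the estradiol mean of 5.24 lay under the mean floor of the vehicle arrays. The change was 0.30 without background correction and 0.02 when all rows served to infer the background.

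SIAH2 encodes a RING ubiquitin ligase that marks proteins for the proteasome, and RAPGEFL1 a protein related to exchange factors for Rap GTPases. Raw signals of SIAH2 were 137, 144, 136 and, on the repeat array, 161 with vehicle, and 155 and 184 for culture 1, 185 for culture 2 and 172 for culture 3 with estradiol. Its detection p was at most 0.0013 on every array. The repeat array of vehicle culture 3 lay within the estradiol values. The log2 change was 0.21 (95% interval -0.11 to 0.53, adjusted p = 0.312, limma), and 0.29 without that repeat array (adjusted p = 0.16, limma). RAPGEFL1 had raw signals of 109, 81.0, 97.0 and, on the repeat array, 88.9 with vehicle, and of 88.5 and 93.5 for culture 1, 95.7 for culture 2 and 86.2 for culture 3 with estradiol. Its detection p was 0.0013 to 0.00519 with vehicle and 0.0013 to 0.00779 with estradiol. The vehicle values enclosed all estradiol values, and the log2 change was -0.20 (95% interval -0.51 to 0.12, adjusted p = 0.333, limma). It passed as lower only when arrays were weighted (log2 change -0.34, adjusted p = 0.0103, limma), and its adjusted p lay between 0.0103 and 0.826 in the 26 alternatives.

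**Figure D3:**
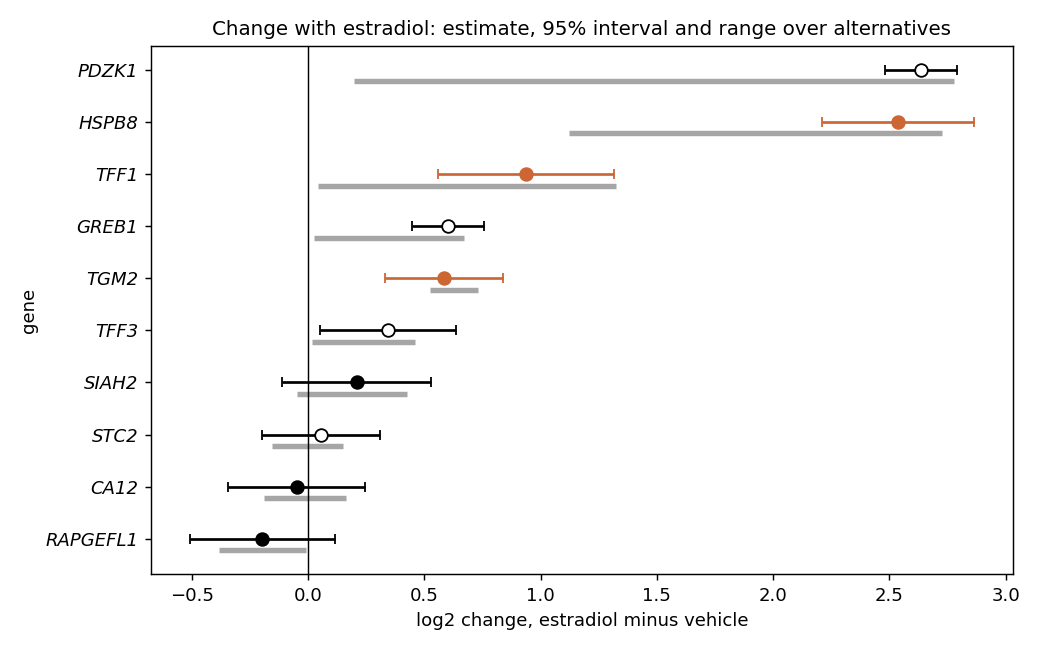
Log2 change (estradiol minus vehicle) of each gene with its 95% interval; filled points were tested with the detection filter (orange where they rose), open points were set aside by it and have the interval of the fit to all rows. Grey bars span the values under all alternatives: those of PDZK1, TFF1 and GREB1 reach down to 0.20, 0.04 and 0.02, and that of TGM2 stays between 0.53 and 0.73.

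Leaving out the vehicle 3 repeat array kept HSPB8, TGM2 and TFF1 as the 3 genes that rose, with log2 changes of 2.57, 0.59 and 0.98. With the chip as a block the values were 2.55, 0.57 and 1.19, and 2.59 and 0.56 for PDZK1 and GREB1. That fit estimated a correlation of -0.569 between the 2 arrays of a culture, which makes its p-values too small, so none is given.

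Relatives of the 10 genes were followed in a list of 29, of which 14 were tested: 7 rose, 0 fell and 7 did not pass. The other 15 were detected on no array. Of those 15, RAPGEF1, a combined row with a mean log2 level of 8.35 with vehicle, fell without a filter. Its log2 change was -0.48 (adjusted p = 0.0202, or 0.0598 without the vehicle 3 repeat array, limma). Among all rows tested 13.5% rose and 14.1% fell. Of the 7, GREB1L, SLC9A3R2 and CA2 entered the test through their estradiol arrays alone. Over all 29 the median log2 change was -0.01, as over all rows. The list was drawn up with earlier results of these data known, and some entries are partners and not relatives in sequence. TFF2, the third trefoil gene, rose most, with a raw signal of 107.7, 78.6, 81.8 and, on the repeat array, 65.2 with vehicle and of 213 to 238 with estradiol (log2 change 2.08, SE 0.173, adjusted p = 1.29e-05, limma). It lies between TFF1 and TFF3 in the gene table. TMPRSS3, on the other side of TFF1, also rose (at least 1.57-fold, nominal in a combined row, adjusted p = 6.52e-05, limma). TMPRSS3 too entered the test through its estradiol arrays alone. The NHERF scaffold genes SLC9A3R1 (1.18) and SLC9A3R2 (at least 1.19-fold) rose, whereas PDZD3, listed beside them, was detected on no array (-0.09). Of the small heat shock genes listed, HSPB1 rose (0.82), and HSPB2, HSPB3, HSPB6, HSPB7 and CRYAB were detected on no array. The GREB1 paralogue GREB1L, listed under its older name KIAA1772, was at least 1.46-fold higher. STC1, the paralogue of STC2, was detected on 8 of 8 arrays and rose by 1.15, and CA2, a cytosolic carbonic anhydrase gene not detected with vehicle, passed at a log2 difference of 0.47, although its estradiol level was not above the detection floor and no fold is given. For all 7 that rose the adjusted p (limma) was 0.00974 or less, and SLC9A3R1 and HSPB1 are also counted in the next list. SIAH1 (-0.22) and TGM1 (0.31) did not pass, and CA9 was detected on no array.

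Of 64 other genes known to respond to oestrogen, taken from a list drawn up with earlier results of these data known, 37 were tested: 24 rose, 1 fell and 12 did not pass. The background was 13.5% of rows tested that rose and 14.1% that fell. Of the 24, 6 were detected on no vehicle array and so entered the test through their estradiol arrays alone. The median log2 change was 0.25 over all 64, of which 23 were detected on no array. After KRT13, IGFBP4, CTSD and CCN5 (listed as WISP2), the smallest p-values belonged to SERPINA1, the alpha-1-antitrypsin gene (log2 change 2.05, SE 0.110, a combined row detected on 0 of 4 vehicle and 4 of 4 estradiol arrays), TPD52L1 (log2 change 2.23, SE 0.121, detected on 2 of 4 arrays of each treatment), KRT19, a keratin of simple epithelia (1.81, SE 0.123), and SERPINA3 (at least 2.20-fold), all with an adjusted p of at most 8.43e-06 (limma). SERPINA1 had a mean log2 level of 8.05 with vehicle, although no vehicle array detected it. Only MYC fell (-0.43). As with PDZK1, the filter set aside combined rows. The 4 further genes that rose without a filter were RARA, which encodes retinoic acid receptor alpha (1.52), FHL2 (0.68), MAPT (0.61) and IL17RB (0.27, adjusted p = 0.0373, or 0.0626 without the vehicle 3 repeat array, limma). None of the 4 was detected on any array, although RARA and FHL2 had mean log2 levels of 7.08 and 11.35 with vehicle. PGR, the classic target that encodes the progesterone receptor, was detected on 0 of 8 arrays, and its log2 change was 0.19 (adjusted p = 0.566 without a filter, limma).

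**Figure D4:**
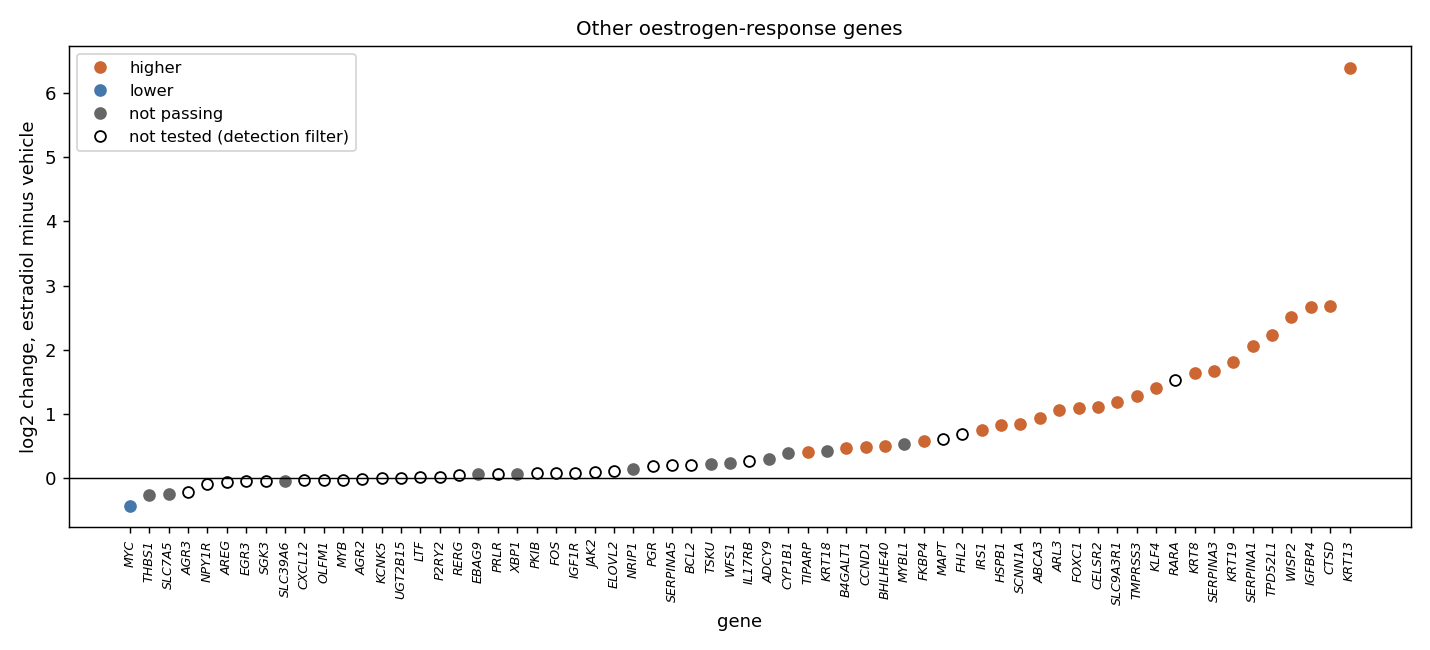
Log2 change (estradiol minus vehicle) of 64 other oestrogen-response genes in rising order; orange rose, blue fell, grey did not pass and open points were not tested. The changes run from -0.43 for MYC to 6.40 for KRT13.

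Receptors and cofactors were a list of 22, of which 15 were tested: 4 rose, 2 fell and 9 did not pass, where 13.5% of all rows tested rose and 14.1% fell. The membrane oestrogen receptor gene GPER, now GPER1, rose, with raw signals of 208 to 292 on vehicle and 714 to 771 on estradiol arrays (log2 change 1.66, SE 0.113, adjusted p = 2.81e-06, limma). TFAP2C, a transcription factor gene of breast epithelium, rose by 1.34. The coactivator gene NCOA1, a combined row detected on 0 of 4 vehicle and 3 of 4 estradiol arrays, rose by 0.39. It entered the test through its estradiol arrays alone, so for it the filter and the rise are not independent. Its mean log2 level with vehicle was 6.84. GATA3, a luminal transcription factor gene, fell (-0.45), as did the signal of the ESR2 row. The coactivator genes NCOA3 (0.09) and MED1 (-0.01) did not pass. The median change over the 22 was 0.04. This list too was drawn up with earlier results of these data known.

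The tested rows whose log2 values over the 8 arrays were most like those of TFF1 were REEP6 (Pearson r = 0.986) and CCDC24 (0.984). For HSPB8 they were OAS2 (0.998) and PTHLH (0.997), and for TGM2 they were ANO8 and RIN1 (0.992 each). These values describe 8 arrays in 2 treatments, and any row that separates the treatments scores high: 54 rows were above 0.95 with TFF1, 335 with HSPB8 and 141 with TGM2.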

How the data were processed

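Per the labels' protocols, Trizol-extracted total RNA was made into biotinylated cRNA for Illumina arrays. The deposited tables hold, per gene row and array, an intensity with its detection p-value, without normalization between arrays per the file headers, and intensities that the authors normalized, by steps not given in the sources used here. Of 31412 rows with values, 24130 had a detection p that, times 770, came out whole (within 0.002) on every array and were taken as single-probe rows, and 7282 as combined rows.

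Signals were background-corrected (normexp, negative controls inferred from single-probe rows), raised by an offset of 16, quantile normalized and log2 transformed (R 4.3.3, limma 3.58.1). The offset shrinks fold changes of dim genes. Cultures were taken from the titles; for the estradiol repeat the title gives culture 1 and the series text replicate 3, which was tried as an alternative. Estradiol and vehicle were compared with lmFit and eBayes over 3 and 3 cultures without covariates, with Benjamini-Hochberg adjustment over all rows tested and a threshold of 0.05. A fold against a treatment without detection used, per array, the higher of the gene's level and the lowest detected single-probe level. Genes were named by a rule: the 10 genes, up to 8 called members of each list by p, ESR1, ESR2 and PGR, and the 2 rows most like each called gene; any other gene was picked once its values were known. The genes and lists were chosen with earlier results of these data known. The fit was tested on simulated data. Promoters came from RefSeq and matched 6 of the 10 genes. Values of some list genes are not reported here.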

Additional observations from a re-analysis of the deposited data

Results flagged for a closer look

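Over the 4 estradiol arrays, 1 value of PDZK1 lay far from the others. The first array of estradiol culture 1 was at 7.17 on the log2 scale, against 7.35 to 7.37 on the other 3 arrays, a gap of 0.899 of the whole range, past Dixon's limit for 4 values. It was the only estradiol array on chip 1, and the repeat of the same culture, on chip 2, had the highest value, 7.37. Its raw signal was 199, against 202 on that repeat and 232 and 233 for cultures 2 and 3. The flagged array stayed above every vehicle array. The 10 genes gave 20 groups of 4 arrays, and chance alone flags about 1 in 20.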

How the results depend on the processing

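The 3 genes that rose (HSPB8, TGM2, TFF1) numbered 2 to 5 over 26 alternatives: 5 without a detection filter, 2 when all rows served to infer the background, where TFF1 did not pass, 2 when detection on all 8 arrays was required, which removed TFF1 and CA12, and 2 in chip 1 alone, where TGM2 did not pass. The count that fell was 0 except with array weights, where it was 1 (RAPGEFL1). CA12, SIAH2 and STC2, which did not pass under any alternative that tested them, changed sign. CA12 was at 0.036 without the vehicle 3 repeat array, 0.16 with each array centred on the median of all rows, 0.032 in chip 2 alone, 0.066 with array weights, and -0.13 to 0.090 when a culture was left out. SIAH2 was at -0.046 in chip 1 alone, and STC2 ran from -0.15 to 0.15. The cause was not tested. Centring on all rows moved the median change of all tested rows from -0.02 to 0.14 and called 2053 rows higher and 540 lower, against 1516 and 1577; HSPB8, TGM2, TFF1 and PDZK1 stayed above that shift.

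Of the other oestrogen-response genes, 13 rose in chip 1 alone, which has 3 arrays, against 24. Those lower numbered 0 in chip 1 alone and with centring on all rows, 2 without background correction, when all rows served to infer it, with an offset of 50, with centring on detected rows and with trend and robust variance, 3 in the authors' values, with the chip as a block and with array weights, and 1 to 2 when a culture was left out. With the replicate block 3 of the 10 genes rose and 0 fell, with no call of the 10 changed. Deviations of same-numbered cultures correlated at 0.133, 0.133 and -0.0328, so the numbers were not taken as pairs, and culture 3 did not correlate best with its own number. TFF1, TFF3, GREB1 and STC2 lay near background, where the offset shrinks fold changes. How small a change could be detected there was not tested. The filter on detection p under 0.05 tested GREB1 (adjusted p = 0.00175, limma).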
